A study of Mus musculus with 4 samples.

Results

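miR-143 and miR-145a are miRNAs cut from neighbouring hairpins on mouse chromosome 18. Both arms of each hairpin were taken by name from the table of mature miRNAs, which gave 4 members (mmu-miR-143-5p, mmu-miR-143-3p, mmu-miR-145a-5p and mmu-miR-145a-3p) of 1907 miRNAs listed. They were measured by small RNA-seq in E14Tg2A cells, a mouse embryonic stem (ES) cell line of 129/Ola origin grown on gelatin. ES serum is the line at day 0 in 10% fetal calf serum with leukemia inhibitory factor (LIF), and ES 2iL is the line at day 0 after several passages in serum-free N2/B27 medium with LIF, the MEK inhibitor PD0325901 and the GSK3 inhibitor CHIR99021. ELA serum and ELA 2iL are the epiblast-like aggregates formed from ES cells of each of these media in 2 days as floating aggregates in a minimal N2/B27 medium, so their medium name refers to the ES cells they came from. Each group is 1 library made from the pooled RNA of 3 sets of experiments, and all 4 libraries come from 1 line. No value below therefore has a replicate error, and the intervals given cover counting error only.

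In animals, a hairpin precursor is cut into a short duplex, and usually 1 of its strands (the 5p or the 3p arm) is kept by Argonaute, the core of the RNA-induced silencing complex (RISC). The guide then pairs through its seed, bases 2 to 8, with target mRNAs and lowers their translation and stability. miR-143 and miR-145 are known as abundant miRNAs of smooth muscle and other mesenchymal cells, and miR-145 is known in human ES cells as a repressor of the pluripotency factors Oct4, Sox2 and Klf4. In both hairpins the arm usually described as the guide is miR-143-3p and miR-145-5p. No target mRNA was measured in these libraries.

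By the GENCODE annotation of mm9, the build to which the reads were mapped, the hairpin gene Mir143 lies on the minus strand at chr18:61808850-61808912 and Mir145 on the same strand at chr18:61807470-61807557. Between the hairpins are 1292 bases. No other gene of that annotation overlaps either hairpin, whereas in the RefSeq gene list of the later build GRCm38.p6 both lie within the span of the long non-coding RNA gene Carmn, also called Mir143hg. mmu-miR-145b, a miRNA of similar name from another hairpin, is not a member and was listed at 0 in all 4 libraries.

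The libraries held 587363 to 8056984 miRNA reads, the ELA 2iL library being the shallowest and ES serum the deepest. Levels are given in RPM, the number of reads expected among 1000000 miRNA reads, a share and not an amount per cell. A level of 3 reads, taken as the floor of detection, equals 0.372 RPM in ES serum, 0.696 in ELA serum, 1.08 in ES 2iL and 5.11 in ELA 2iL. Titles, source names, culture characteristics and column names give the same group for every library, whereas the free-text description exchanges ES 2iL and ELA serum. If that field were right, every stage contrast below would be a medium contrast and the reverse, and the arms of miR-145a would differ between ES cells and ELA instead of between media. As a check chosen after the values had been seen, both arms of miR-302a to miR-302d and of miR-367, 1 cluster known as a marker of primed, epiblast-like pluripotency, summed to 5952 RPM in ES serum, 37319 in ELA serum, 78.4 in ES 2iL and 7084 in ELA 2iL over 10 miRNAs. The sum was higher in ELA than in ES cells in both media as labelled here, while with the exchange the library lowest in the cluster would be ELA from serum. In a bulk sample a lower share of expressing cells and less of a miRNA per cell cannot be told apart.

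mmu-miR-143-3p was by far the most read member. It was at 3102 RPM in ES serum (24993 reads, exact 95% interval 3064 to 3141), 1451 in ELA serum (6252 reads, 1415 to 1487), 4729 in ES 2iL (13085 reads, 4648 to 4810) and 1886 in ELA 2iL (1108 reads, 1777 to 2001). Both ES libraries lay above both ELA libraries, and at each stage the 2iL library lay above the serum library, with no overlap of the counting intervals. This placed it 41st of all miRNAs in ES serum, 63rd in ELA serum, 36th in ES 2iL and 57th in ELA 2iL. It made up 97.6% to 99.2% of the reads of the 4 members in each library, so the share of the members in a library followed it closely. That share was 0.314% of miRNA reads in ES serum (interval 0.311 to 0.318) and 0.146% in ELA serum (0.143 to 0.150). With 2iL it was 0.480% before (0.472 to 0.488) and 0.193% after the transition (0.182 to 0.205).

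mmu-miR-143-5p, the opposite strand of the same duplex, was close to the floor. It had 12 reads in ES serum (1.49 RPM, interval 0.770 to 2.60) and 6 in ES 2iL (2.17 RPM, 0.796 to 4.72), and was listed at 0 in both ELA libraries. Against the floor of 3 reads in ELA serum, its level in ES serum was at least 2.14-fold higher without the counting error of the 12 reads, and with it the exact 95% interval of the log2 ratio of ELA to ES reads ended at -0.57. In ELA 2iL the floor lies above the level in ES 2iL and that interval ended at 2.00, so a difference was not detectable at this depth. The 5p strand took 0.0480% of the miR-143 reads in ES serum (interval 0.0248 to 0.0838) and 0.0458% in ES 2iL (0.0168 to 0.0997). In ELA serum 0 of 6252 reads were 5p, which allows a share of up to 0.0480% by the limit of 3 reads and up to 0.0590% by the two-sided exact interval. In ELA 2iL 0 of 1108 were 5p, which allows up to 0.271% and 0.332% in the same way. The share of the 5p strand in ELA cannot be separated from that in ES cells at these depths.

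mmu-miR-145a-5p, the strand known to target pluripotency factors, was at low levels and differed most between the media. It was at 11.9 RPM in ES serum (96 reads, exact 95% interval 9.65 to 14.6), 4.18 in ELA serum (18 reads, 2.48 to 6.60), 60.4 in ES 2iL (167 reads, 51.5 to 70.2) and 35.8 in ELA 2iL (21 reads, 22.1 to 54.7). Both 2iL libraries lay above both serum libraries. Within each medium the ELA library was the lower one, though in 2iL the single intervals overlapped.

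mmu-miR-145a-3p, the other strand of the miR-145a duplex, had another order. It was at 28.7 RPM in ES serum (231 reads, 25.1 to 32.6), 8.12 in ELA serum (35 reads, 5.66 to 11.3), 10.5 in ES 2iL (29 reads, 7.02 to 15.0) and 10.2 in ELA 2iL (6 reads, 3.75 to 22.2). ES serum stood above the other three, whose intervals overlapped each other. Both arms of miR-145a summed to 40.6 RPM in ES serum, 12.3 in ELA serum, 70.8 in ES 2iL and 46.0 in ELA 2iL.

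**Figure D1:**
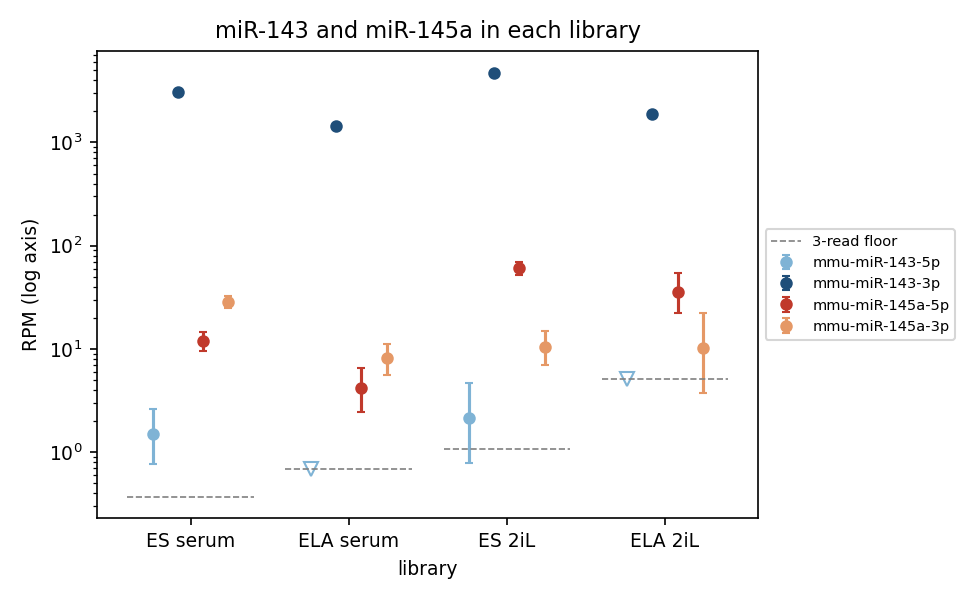
Level of each member in each library in RPM (log axis), with exact 95% counting intervals; open triangles mark mmu-miR-143-5p where it was listed at 0, drawn at the floor of 3 reads (dashed). mmu-miR-143-3p lies between 1451 and 4729 RPM, and mmu-miR-145a-5p lies below mmu-miR-145a-3p in the serum libraries and above it in the 2iL libraries.

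The more abundant arm of miR-145a was the 3p arm in both serum libraries and the 5p arm in both 2iL libraries. The 5p arm made up 29.4% of miR-145a reads in ES serum (96 of 327 reads, exact 95% interval 24.5 to 34.6) and 34.0% in ELA serum (18 of 53, 21.5 to 48.3). It made up 85.2% in ES 2iL (167 of 196, 79.4 to 89.9) and 77.8% in ELA 2iL (21 of 27, 57.7 to 91.4). The serum intervals end below 50% and the 2iL intervals begin above it, in the shallowest library too. Between ES cells and ELA of the same medium the intervals overlapped.

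**Figure D2:**
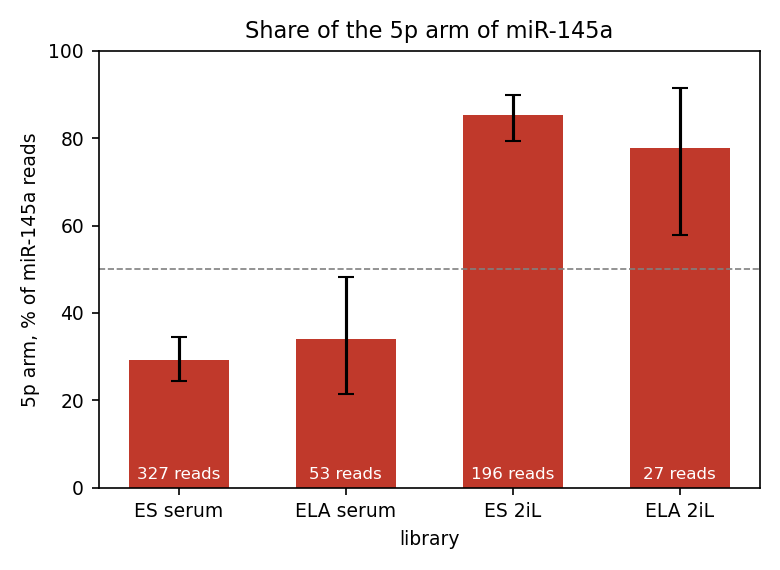
Share of the 5p arm among the miR-145a reads of each library (percent, bars from 0), with exact 95% counting intervals and the number of reads in each bar; the dashed line is at 50%. The serum libraries are at 29.4% and 34.0%, and the 2iL libraries at 85.2% and 77.8%.

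The arm ratio compares strands within 1 library, so it does not depend on how libraries are scaled. As log2 of 5p over 3p reads, with 0.5 reads added to each, it was -1.26 in ES serum, -0.94 in ELA serum, 2.51 in ES 2iL and 1.73 in ELA 2iL. The mean of the 2iL libraries exceeded that of the serum libraries by 3.22 (95% counting interval 2.38 to 4.06). Of 199 hairpins with at least 20 reads over both arms in each library, 7 (3.52%) had a different leading arm in both serum and both 2iL libraries, and miR-145a was 1 of 3 (1.51%) that went from the 3p arm in serum to the 5p arm in 2iL. The others of these 3 were miR-152 and miR-700. These counts take the leading arm by sign without counting error, and miR-700, for example, had nearly equal arms in ES serum (log2 ratio -0.05). With the exact interval of the arm share excluding equal arms in every library, 4 hairpins (2.01%) differed between media, and miR-145a was the 1 (0.503%) that went from 3p to 5p. By the size of the difference between media miR-145a ranked 5th of the 199, whose median size was 0.74. No hairpin of the 199 had its leading arm differ between both ES and both ELA libraries. These are descriptions of 4 libraries, and miR-152 and miR-700 were picked out after their values had been seen.

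**Figure D3:**
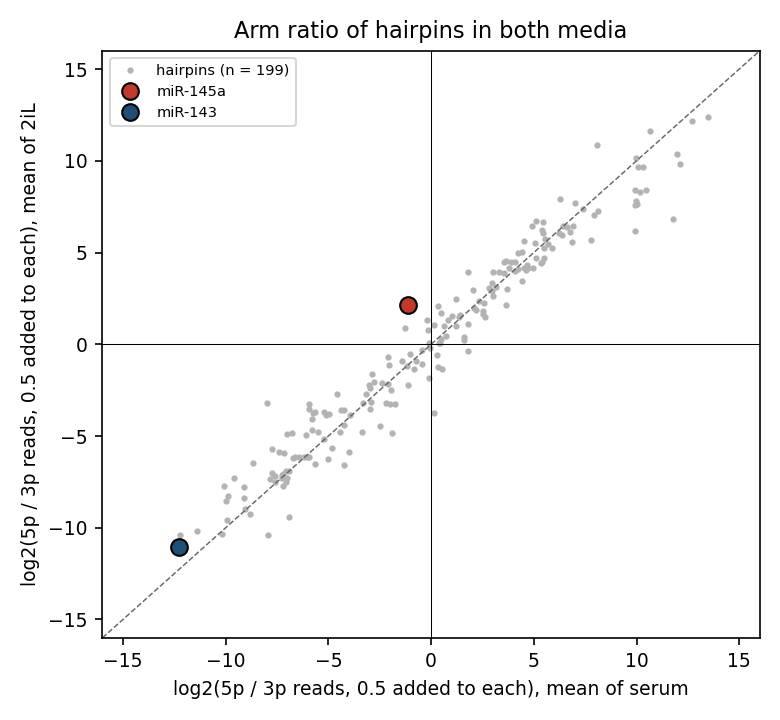
Ratio of the arms of 199 hairpins, as log2 of 5p over 3p reads with 0.5 added to each, averaged over the serum libraries (x axis) and the 2iL libraries (y axis); the dashed line marks equal ratios. miR-145a (red) lies to the left of 0 in serum and above 0 in 2iL, 3.22 above equality, while miR-143 (blue) is at the 3p end in both.

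The ES–ELA transition was the first comparison of the study, and differences are on log2(RPM + 1). mmu-miR-143-3p differed by -1.10 in serum, a 2.14-fold lower level in ELA, and by -1.33 in 2iL, a 2.51-fold lower level. As a log2 ratio of reads, its exact 95% intervals ran from -1.14 to -1.06 in serum and from -1.42 to -1.24 in 2iL. mmu-miR-145a-5p differed by -1.32 in serum and by -0.74 in 2iL, and the intervals of its log2 ratio (-2.33 to -0.78 and -1.48 to -0.10) excluded 0 in both media. mmu-miR-145a-3p differed by -1.70 in serum, where its log2 ratio had an interval from -2.38 to -1.30. In 2iL its difference was -0.03, from 29 and 6 reads, with an interval from -1.60 to 1.26, and a change was not detectable at this depth.

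Of the 3 members that passed the filter of at least 10 reads in at least 2 libraries, mmu-miR-143-3p and mmu-miR-145a-5p were lower in ELA beyond counting error in both media, and mmu-miR-145a-3p in serum. Of the 599 miRNAs passing the filter, 23.4% were lower in ELA beyond counting error in both media. By sign alone, without regard to counting error, 42.6% were below 0 in both media. mmu-miR-143-3p was lower by at least 1 in each medium, as were 10.7% of the 599. The median difference of the 599 was -0.15 in serum and -0.31 in 2iL. Relative to it, mmu-miR-143-3p was at -0.95 and -1.01, mmu-miR-145a-5p at -1.17 and -0.43, and mmu-miR-145a-3p at -1.55 and 0.28.

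**Figure D4:**
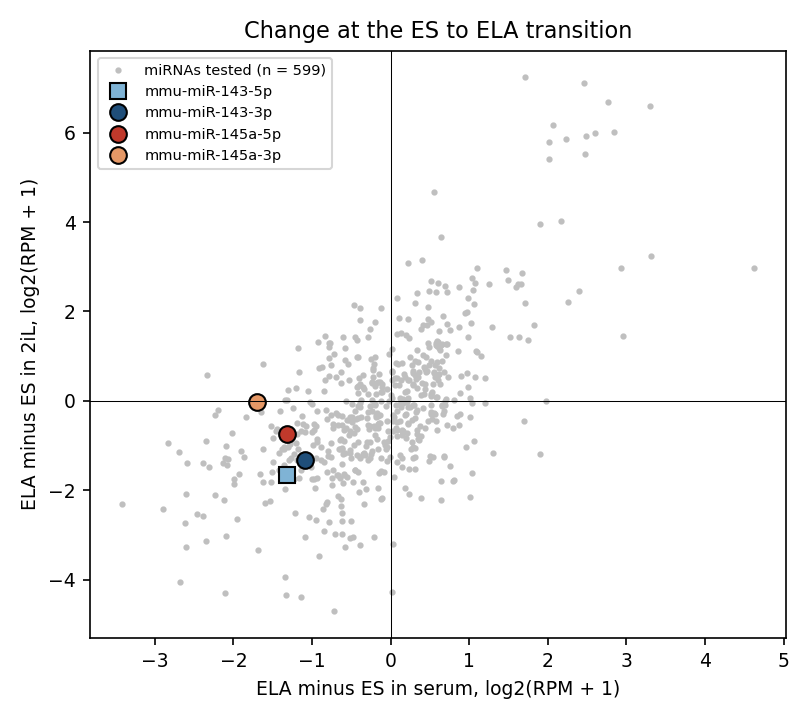
ELA minus ES difference on log2(RPM + 1) in serum (x axis) and in 2iL (y axis) for the 599 miRNAs tested (grey) and the members (coloured; the square, mmu-miR-143-5p, did not pass the filter). All 4 members lie to the left of 0 in serum, and mmu-miR-145a-3p lies at -0.03 in 2iL.

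With limma over all 4 libraries, with stage and medium as terms, no member had a stage contrast that passed the adjusted threshold of 0.05. mmu-miR-143-3p had a stage contrast (the mean of the differences in both media) of -1.21 ± 0.44 (limma standard error, unadjusted p = 0.0422, adjusted p = 0.219). mmu-miR-145a-5p had -1.03 ± 0.46 (limma adjusted p = 0.268) and mmu-miR-145a-3p -0.87 ± 0.58 (limma adjusted p = 0.416). limma called 0 of the 599 miRNAs for stage (0%), with 125 (20.9%) under an unadjusted p-value of 0.05. On the reads recovered from the RPM, edgeR's quasi-likelihood test called 13 lower in ELA (2.17%) and 26 higher, and DESeq2 called 16 lower (2.67%) and 34 higher, in neither case a member. The fit has 1 residual degree of freedom for each miRNA, which is the disagreement of the stage differences between the media. Its standard errors combine that residual with a variance shared over miRNAs, and are neither replicate nor counting errors.

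The other comparison was between media. mmu-miR-145a-5p was higher in 2iL than in serum by 2.25 on log2(RPM + 1) in ES cells, a 5.07-fold difference in RPM, and by 2.83 in ELA, an 8.56-fold difference. The exact 95% intervals of its log2 ratio of reads were 1.97 to 2.72 in ES cells and 2.12 to 4.09 in ELA. Of the 599 miRNAs, 14.9% were higher by at least 1 at both stages. Relative to their median, which was 0.43 in ES cells and 0.30 in ELA, the difference of mmu-miR-145a-5p was 1.82 and 2.53. Its medium contrast, the mean over both stages, was 2.54 ± 0.46 (limma standard error, unadjusted p = 0.00297, adjusted p = 0.0910), which did not pass the threshold of 0.05. It passed with edgeR (2.24, adjusted p = 0.0283) and with DESeq2 (2.30, adjusted p = 0.0102). limma called 0 of the 599 for the medium (0%), with 176 (29.4%) under an unadjusted p-value of 0.05, while edgeR called 22 higher in 2iL (3.67%) and 42 lower, and DESeq2 32 higher (5.34%) and 48 lower.

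mmu-miR-145a-3p differed by -1.37 between ES 2iL and ES serum, being lower in 2iL (interval of the log2 ratio of reads -2.06 to -0.89). In ELA its difference was 0.30, with an interval from -1.21 to 1.60 that did not exclude 0. Its medium contrast was -0.54 ± 0.58 (limma adjusted p = 0.575). The arms of 1 duplex thus went opposite ways between ES serum and ES 2iL, beyond the counting error of each.

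mmu-miR-143-3p was higher in 2iL by 0.61 in ES cells (log2 ratio of reads 0.58 to 0.64) and by 0.38 in ELA (0.29 to 0.47). These values were close to those of the median miRNA, from which they differed by 0.18 and 0.08. The medium contrast of 0.49 ± 0.44 (limma adjusted p = 0.485) was -0.01 ± 0.49 when libraries were scaled by TMM and 0.05 ± 0.56 with DESeq2 size factors. Relative to the median miRNA it was 0.17 under RPM and 0.15 under both other scalings. mmu-miR-143-5p had a medium difference of 0.35 in ES cells, with an interval of the log2 ratio from -1.16 to 2.07, and was listed at 0 in both ELA libraries.

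**Figure D5:**
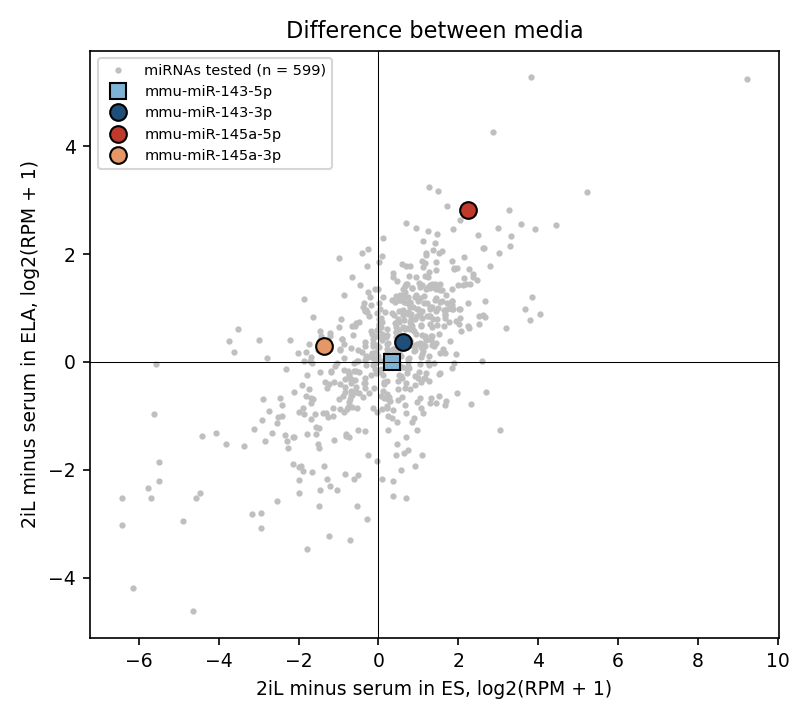
2iL minus serum difference on log2(RPM + 1) in ES cells (x axis) and in ELA (y axis) for the 599 miRNAs tested (grey) and the members (coloured; the square, mmu-miR-143-5p, did not pass the filter). mmu-miR-145a-5p lies at 2.25 and 2.83, mmu-miR-143-3p near the middle of the cloud, and mmu-miR-145a-3p at -1.37 in ES cells and 0.30 in ELA.

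As neighbouring hairpins, miR-143 and miR-145a were not read in a fixed ratio. Reads of both miR-143 arms exceeded those of both miR-145a arms 76.5-fold in ES serum (exact 95% interval 68.6 to 85.5) and 118-fold in ELA serum (90.1 to 158). With 2iL the ratio was 66.8 in ES cells (58.0 to 77.3) and 41.0 in ELA (28.1 to 62.6). For the usual guide strands alone, mmu-miR-143-3p over mmu-miR-145a-5p, the ratio was 260 in ES serum (213 to 322) and 347 in ELA serum (220 to 586). With 2iL it was 78.4 in ES cells (67.3 to 91.8) and 52.8 in ELA (34.3 to 85.6). The intervals of the guide ratio in the serum libraries lay above those in the 2iL libraries, and within a medium they overlapped. A ratio between different miRNAs is one of reads, since the efficiency of small RNA cloning differs between sequences.

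The miRNAs with the most similar profile were sought among those that passed the filter and averaged 5 or more on log2(RPM + 1), by the Euclidean distance between mean-centred log2(RPM + 1) values over the 4 libraries. For mmu-miR-143-3p these were mmu-miR-669l-5p and mmu-miR-192-5p, each at a distance of 0.18, and mmu-miR-423-5p at 0.20. mmu-miR-192-5p, for example, was at 1700 RPM in ES serum, 773 in ELA serum, 2945 in ES 2iL and 1011 in ELA 2iL. For mmu-miR-145a-5p they were mmu-miR-294-5p (0.30) and mmu-miR-291b-3p (0.58), both of the miR-290 cluster known from ES cells, and mmu-miR-702-3p (0.66). mmu-miR-294-5p was at 233 RPM in ES serum, 107 in ELA serum, 957 in ES 2iL and 667 in ELA 2iL, again highest in ES 2iL and lowest in ELA serum. For mmu-miR-145a-3p they were mmu-miR-128-1-5p (0.41), mmu-miR-2137 (0.47) and mmu-miR-18a-3p (0.50). With 4 libraries, such likeness is a description only.

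Other miRNAs known to repress pluripotency factors were listed beside miR-145a. miR-134, miR-296 and miR-470 are known in mouse ES cells to act on the mRNAs of Nanog, Oct4 and Sox2, and their 5p strands are shown, by RefSeq (GRCm38.p6), with the seed in capitals, so that it can be seen that their seeds differ.
mmu-miR-134-5p: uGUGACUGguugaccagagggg
mmu-miR-296-5p: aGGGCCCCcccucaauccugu
mmu-miR-470-5p: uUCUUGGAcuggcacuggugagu

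All 4 miRNAs of this list, which also holds mmu-miR-296-3p, were above the levels of miR-145a in every library. mmu-miR-134-5p was at 995 RPM in ES serum, 1914 in ELA serum, 484 in ES 2iL and 1895 in ELA 2iL, so that ELA was higher in both media (stage contrast 1.45 ± 0.50, limma adjusted p = 0.202, edgeR adjusted p = 0.0637). mmu-miR-470-5p was at 361, 242, 95.05 and 180 RPM in the same order, and mmu-miR-296-5p at 76.7, 161, 276 and 148 RPM. mmu-miR-296-3p was at 94.0 RPM in ES serum, 153 in ELA serum, 197 in ES 2iL and 186 in ELA 2iL. By limma and by edgeR, 0 of these 4 had an adjusted p-value under 0.05 for either contrast. Of all 599 miRNAs, limma called 0 for either contrast, so its outcome does not set this list apart. edgeR called 39 of the 599 for stage and 64 for the medium.

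Markers of muscle, mesenchymal and other cells were read in the same libraries. The 7 muscle miRNAs listed are known from striated (cardiac and skeletal) muscle, so the list is no readout of smooth muscle. Of these 7, 3 passed the filter, and the list summed to 23.5 RPM in ES serum, 61.3 in ELA serum, 231 in ES 2iL and 128 in ELA 2iL. mmu-miR-499-5p, of a cardiac and slow-muscle myosin gene, made up most of this in ES 2iL, being read at 228 RPM there against 5.09 in ES serum, and at 49.4 RPM in ELA 2iL against 4.64 in ELA serum. mmu-miR-133a-3p was at 10.4 RPM in ES serum, 46.6 in ELA serum, 0 in ES 2iL and 71.5 in ELA 2iL, whereas mmu-miR-1a-3p, its partner in muscle, stayed between 0 and 1.70 RPM. For stage, 0 of the 3 passed with limma and mmu-miR-133a-3p passed with edgeR (adjusted p = 0.0246), and for the medium 0 passed with limma and mmu-miR-499-5p with edgeR (adjusted p = 0.00172). Over all 599 miRNAs limma called 0 for either contrast, and edgeR 39 for stage and 64 for the medium.

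Of 6 mesenchymal miRNAs (both arms of miR-199a, miR-199b and miR-214), 4 passed the filter, and they summed to 74.2 RPM in ES serum, 34.6 in ELA serum, 82.0 in ES 2iL and 85.1 in ELA 2iL. Both arms of miR-214 had at most 3 reads in a library. None of the 4 passed with limma or edgeR for stage or medium, where limma called 0 of the 599 miRNAs and edgeR 39 and 64. mmu-miR-143-3p was read at 22.2 to 57.6 times the summed RPM of these mesenchymal miRNAs. Of the endothelial and liver miRNAs, both arms of miR-126a and mmu-miR-122-5p were listed at 0 throughout, as were 705 of all 1907 miRNAs. Since the treatment of reads that map to several places is not known, a listed 0 need not mean absence. Of 3 blood miRNAs, mmu-miR-142a-3p was listed at 0, mmu-miR-223-3p had at most 12 reads, and mmu-miR-142a-5p was at 549 to 1999 RPM without passing either test. The part of other cell types in the levels of miR-143 and miR-145a was not tested.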

How the data were processed

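Per the study's methods, libraries (TruSeq Small RNA kit) were demultiplexed with CASAVA 1.8, adaptors were trimmed with Trimmomatic, and reads were mapped to mm9 with Bowtie and assigned to miRBase release 20 with featureCounts. The authors deposited RPM values, in which each library sums to 1000000 over 1907 miRNAs. Other versions and the treatment of reads that map to several places are not given in the sources used here. Samples were grouped by their source names, with which the columns of the table match. The description field, in which ES 2iL and ELA serum are exchanged, was not used. No column was left out.

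All values above 0 were whole multiples of 1 read within 0.01 reads (100% in each library), which gave totals of 8056984 (ES serum), 4309257 (ELA serum), 2767016 (ES 2iL) and 587363 (ELA 2iL). Intervals are exact (Clopper-Pearson) on these reads, except that of the mean arm ratio (normal approximation). The reads carry no molecular identifiers.

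Tests used limma 3.58.1 (R 4.3.3) on log2(RPM + 1), in an additive model of stage and medium, for the 599 miRNAs that reached 10 reads in 2 or more libraries, two-sided, with Benjamini-Hochberg adjustment. The pseudocount of 1 understates changes of low miRNAs. The study names edgeR; as the values are RPM, edgeR 4.0.16 and DESeq2 1.42.0 on recovered reads were alternatives, besides other scalings, pseudocounts, no filter and each library left out. The limma, edgeR and DESeq2 fits were tested on simulated reads. The members and lists were chosen with earlier results of these data known. The named miRNAs are the members, the 3 nearest profiles of each that passed the filter, and the listed miRNAs. The comparison of arms across hairpins was added after the values had been seen.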

Additional observations from a re-analysis of the deposited data

Results flagged for a closer look

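Some miRNAs had differences of opposite sign in the 2 media or at the 2 stages. The sign was taken under RPM without counting error. Several values lie nearer 0 than the median miRNA of the same comparison, such as -0.04 for mmu-miR-199b-3p and -0.08 for mmu-miR-296-3p. Each value compares 1 library with 1 library on log2(RPM + 1), and the difference between the values was not tested. Among the members, mmu-miR-145a-3p differed between 2iL and serum by -1.37 in ES cells and by 0.30 in ELA, a difference of 1.67 that rests on 6 reads in ELA 2iL.

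Among the listed repressors of pluripotency factors, mmu-miR-296-5p differed at the ES–ELA transition by 1.06 in serum and by -0.89 in 2iL (difference -1.95). Between media mmu-miR-296-5p differed by 1.83 in ES cells and -0.12 in ELA, which gives the same difference by arithmetic and is no second observation. Its other arm, mmu-miR-296-3p, differed by 0.70 and -0.08 at the transition, a difference of -0.78. mmu-miR-470-5p differed by -0.57 at the transition in serum and by 0.92 in 2iL (difference 1.49). Of the muscle miRNAs, mmu-miR-133a-3p differed between 2iL and serum by -3.51 in ES cells, where it had 0 reads in 2iL, and by 0.61 in ELA, a difference of 4.12. Of the mesenchymal miRNAs, mmu-miR-199a-5p, with 14 reads in ELA 2iL, differed at the transition by -1.62 in serum and 0.83 in 2iL, and between media by -0.42 in ES cells and 2.02 in ELA (difference 2.44, the same by arithmetic). mmu-miR-199b-5p differed at the transition by 0.12 in serum and -0.45 in 2iL (difference -0.57), the latter resting on 1 read in ES 2iL and 0 in ELA 2iL, both under the floor of 3 reads, and mmu-miR-199b-3p between media by -0.04 in ES cells and 0.90 in ELA (difference 0.94). The blood miRNA mmu-miR-142a-5p differed at the transition by -0.10 in serum and 0.32 in 2iL (difference 0.42).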

How the results depend on the processing

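The number of miRNAs called depended on the test. Against 0 for stage and 0 for the medium, 28 and 55 were called with TMM scaling, 84 and 112 with DESeq2 size factors, 89 and 109 with totals without the 5 most abundant miRNAs, 9 and 38 with a pseudocount of 5, 99 and 130 with no filter, 39 and 64 with edgeR and 50 and 80 with DESeq2, and 0 and 0 with a pseudocount of 0.5. The calls for the medium were 12 higher and 43 lower with TMM, 32 and 80 with DESeq2 size factors, 49 and 60 with totals without the 5 most abundant, 23 and 15 with a pseudocount of 5, and 73 and 57 with no filter, and those for stage 18 and 10, 47 and 37, 44 and 45, 4 and 5, and 41 and 58 in that order. The medium contrast of mmu-miR-145a-5p passed the threshold with TMM scaling (2.07, adjusted p = 0.0477), DESeq2 size factors (2.13, 0.00709), totals without the 5 most abundant (2.43, 0.00151), a pseudocount of 5 (2.05, 0.0367), no filter (2.54, 0.000321), edgeR (2.24, 0.0283) and DESeq2 (2.30, 0.0102), but not with a pseudocount of 0.5 (2.62, 0.111). In 3 of these limma settings the members tested had nearly the same standard error. It was 0.57 for each with no filter, 0.61 for each without the 5 most abundant, and 0.56 to 0.58 with DESeq2 size factors. In the main fit it ran from 0.44 to 0.58. The p-values of these settings thus rest on a variance largely pooled over miRNAs, and not only on the scaling or filter. The medium contrast of mmu-miR-143-3p was -0.01 with TMM (adjusted p = 0.995) against 0.49, and relative to the median of all miRNAs tested it was 0.15 against 0.17. The median of the 599 miRNAs for the medium was 0.32 under RPM, -0.16 under TMM, -0.10 under DESeq2 size factors and 0.21 with totals without the 5 most abundant, and for stage -0.22, -0.13, -0.07 and -0.16. The stage contrast of mmu-miR-143-5p, of -1.49, was -2.20 with a pseudocount of 0.5 and -0.45 with one of 5, being set by the pseudocount as both ELA libraries had 0 reads. The stage contrasts of the other members stayed negative and past no threshold in these settings, with adjusted p-values of 0.136 to 0.245 for mmu-miR-143-3p.

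Without each library in turn, which leaves no residual degree of freedom and no test, the stage contrast ran from -1.66 to -1.32 for mmu-miR-143-5p, from -1.33 to -1.10 for mmu-miR-143-3p, from -1.32 to -0.74 for mmu-miR-145a-5p and from -1.70 (without ES 2iL or ELA 2iL) to -0.03 (without ES serum or ELA serum) for mmu-miR-145a-3p. The medium contrast ran from 0.00 to 0.35, from 0.38 to 0.61, from 2.25 to 2.83 and from -1.37 (without ELA serum or ELA 2iL) to 0.30 (without ES serum or ES 2iL) in that order. The difference in arm ratio of miR-145a ran from 2.67 to 3.77, and was 3.16 with 1 read added to each arm. With at least 10 reads over both arms, 8 of 233 hairpins changed their leading arm between media. The arm alternatives were chosen after seeing the data. The labels give no replicate numbers to use as a block. For stage, the medium term sets each ELA library against the ES library of the medium its cells came from. The labels do not say whether the same cultures were used.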
